A study of Homo sapiens with 6 samples.

Results

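The MYC, MAX and MXD network of transcription factors was followed through 10 genes after knockdown of MRPL35 in A549 cells (a cell line long grown from a human lung adenocarcinoma). The genes were MYC, MYCN, MYCL, MAX, MLX, MXD1, MXI1, MXD3, MXD4 and MNT. They were measured by every probe set whose platform annotation gave exactly 1 symbol equal to one of these names, which made 44 of 49395 probe sets and 10 of 18244 genes. Group KD (3 arrays) received a lentivirus with a short hairpin against MRPL35, a gene of the mitochondrial ribosome, and group NC (3 arrays) received a lentivirus with a control hairpin. Both groups were grown in the same serum-containing medium, and each array was hybridised with RNA of 1 sample. The labels used here do not give the hairpin sequences, the number of hairpins, the time after infection, or whether samples of a group were separate cultures, so each p-value is set against a spread among arrays that may be no more than technical.

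MYC, MYCN and MYCL are basic helix-loop-helix leucine zipper proteins that bind DNA as dimers with MAX, preferably at the E-box CACGTG, and raise transcription of genes for ribosome assembly, nucleotide synthesis and cell division. The MXD proteins (MXD1, MXI1, MXD3 and MXD4) and MNT compete for MAX and bring the SIN3 corepressor complex to the same sites. MLX is a related hub that pairs with the glucose-sensing Mondo proteins and with some MXD proteins and MNT. MXD1, MXI1 and MXD4 are known from cells that leave the cycle or differentiate, whereas MXD3 is known from proliferating cells.

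The knockdown itself was present in every KD array, with MRPL35 at 30.9% of its level in NC (limma, adjusted p = 3.77e-06). This value is from the brightest of its 4 probe sets, and the others are not given here. Across genes, which are not independent replicates, KD arrays correlated with each other at 0.997 to 0.998, and NC arrays at 0.994 to 0.998. NC replicate 2 stood apart from the other 5 arrays on the second principal component, which held 11.8% of the variance. NC replicates 2 and 3 carry another cell line number in their source name than the A549 of their other labels. Markers of other cell types were dim. Fibroblast markers averaged 3.92 to 3.99 per array in KD and 3.90 to 4.13 in NC on the log2 scale, and 0 of 10 reached the median of gene means, 6.21. Endothelial markers averaged 4.60 to 4.64 in KD and 4.63 to 4.87 in NC (0 of 7 at that median), and leukocyte markers 4.35 to 4.39 in KD and 4.29 to 4.50 in NC (1 of 9). The 11 epithelial and A549 markers averaged 12.15 in all KD arrays and 11.58 to 11.67 in NC, and all but EPCAM reached that median. Of these 11, 7 rose (63.6%) and 0 fell, against 17.6% and 15.9% of all genes. Among genes that reached that median 27.9% rose and 25.4% fell. The part of this shift of the markers in the results below was not tested.

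Of the 10 network genes, 4 fell in KD cells (MYC, MAX, MXD3 and MLX), 4 rose (MXD4, MXD1, MXI1 and MNT) and 2 were not called (MYCN and MYCL). Genes were called at a limma adjusted p under 0.05 over all genes, each represented by its brightest probe set. The 8 called members make 80% of the network, against 33.5% of all genes tested, with 17.6% higher and 15.9% lower. Calls were commoner among bright genes, at 53.2% of genes whose mean reached the median level, and all 7 members that reached it were called. In 9 of 10 members the 3 KD arrays all lay on one side of the 3 NC arrays, as they did for 44.7% of all genes. The members were picked with results of these arrays known, so these shares are a description.

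**Figure D1:**
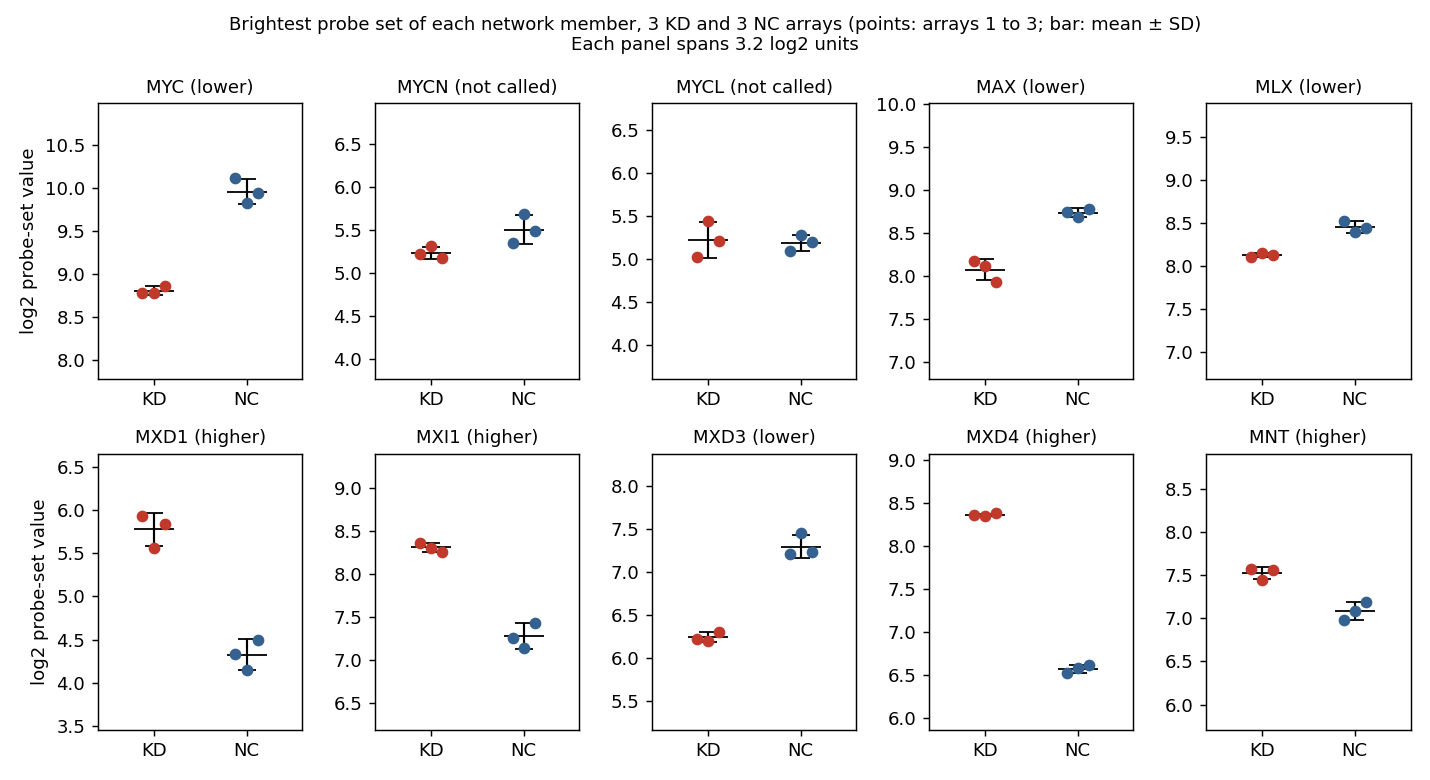
Log2 values of the brightest probe set of each of the 10 network genes in 3 KD arrays (left, red) and 3 NC arrays (right, blue), with the mean and SD as black bars. MYC, MAX, MLX and MXD3 lie lower in every KD array, MXD1, MXI1, MXD4 and MNT lie higher, and only the KD and NC points of MYCL overlap.

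MYC, the family member known from most growing cells, had the brightest probe set of the 10 genes and was lower in KD cells. It read 8.78, 8.77 and 8.86 in KD replicates 1 to 3, against 10.11, 9.82 and 9.94 in NC replicates 1 to 3 (log2 probe-set values). The lowest NC array lay almost a whole log2 unit above the highest KD array. MYC averaged 8.80 ± 0.049 in KD and 9.95 ± 0.146 in NC (SD, n = 3 each). The log2 change was -1.15 ± 0.0929 (standard error; 95% interval -1.36 to -0.94), which leaves 45.0% of the NC signal (limma, adjusted p = 2.43e-05). This value rests on 1 probe set, of the kind that reads several transcripts of the same gene.

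MYCN and MYCL, the relatives known from neural and from lung tumours, were dim on these arrays. The brightest MYCN probe set read 5.22, 5.31 and 5.17 in KD, against 5.34, 5.68 and 5.49 in NC. Although the groups did not overlap, its change of -0.27 (95% interval -0.50 to -0.04) did not pass (limma, adjusted p = 0.0740). The other 3 MYCN probe sets changed by -0.08 to 0.14, and none was called. MYCL read 5.03, 5.45 and 5.21 in KD and 5.10, 5.28 and 5.19 in NC, with overlapping groups and a change of 0.03 (95% interval -0.23 to 0.29, limma adjusted p = 0.868). A dimmer MYCL probe set behaved differently, at 3.79, 3.61 and 3.65 in KD and 4.28, 4.53 and 4.01 in NC, and fell by 0.59 (limma over all probe sets, adjusted p = 0.00744).

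MAX, a partner shared by the MYC and the MXD proteins, fell as well. The brightest of its probe sets gave 8.18, 8.12 and 7.94 in KD, against 8.75, 8.69 and 8.79 in NC. All KD arrays lay below all NC arrays, and the change was -0.66 ± 0.0882 (standard error), leaving 63.2% of the NC signal (limma, adjusted p = 0.000415). MAX had 12 probe sets, more than any other member: 4 fell, 0 rose and 8 were not called over all probe sets. The falls ranged from -0.66 to -0.29. The 5 brightest of the 8 uncalled ones changed by -0.36, -0.25, -0.15, -0.20 and 0.06. The brightest set carries a suffix for probes shared between transcripts of different genes. Without such sets MAX changed by -0.48 (limma, adjusted p = 0.00487), and as the mean of its 12 probe sets by -0.25 (adjusted p = 0.0164).

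MLX, the hub of the Mondo branch, was split between its probe sets. The brightest read 8.10, 8.14 and 8.12 in KD and 8.52, 8.39 and 8.44 in NC, with no overlap, and fell by 0.33 (standard error 0.0759, limma adjusted p = 0.00873). Another, almost as bright, read 8.18, 8.24 and 8.28 in KD and 8.18, 8.19 and 8.21 in NC, and its change of 0.04 had a 95% interval of -0.14 to 0.22. In the fit over all probe sets the interval of the brightest was -0.51 to -0.15, so the 2 intervals did not overlap. In all, 3 of 6 MLX probe sets fell, by 0.33, 0.54 and 0.37, and 3 changed by -0.04 to 0.04. Which transcripts each probe set reads was not tested. As the mean of its probe sets MLX changed by -0.21 (limma, adjusted p = 0.0395).

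MXD4, a MAX-binding repressor, showed the largest change in the network. The brightest of its probe sets gave 8.35, 8.35 and 8.38 in KD, against 6.52, 6.58 and 6.61 in NC. Arrays within each group differed little, and the groups lay far apart. The rise was 1.79 ± 0.0733 (log2, standard error), or 3.46-fold (limma, adjusted p = 1.32e-06). A second bright MXD4 probe set rose 3.21-fold, at 8.24, 8.28 and 8.34 in KD and 6.60, 6.52 and 6.69 in NC. Another rose 1.43-fold, with 7.01, 6.96 and 7.23 in KD and 6.53, 6.65 and 6.48 in NC. The remaining 2 of the 5 changed by 0.03 (95% interval -0.22 to 0.28) and 0.14 (-0.11 to 0.40) and were not called. Their intervals lie below those of the 2 brightest sets, so the size of the rise differed between probe sets of the same gene.

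MXI1, another repressor of the family, rose in 4 of 5 probe sets. The brightest read 8.37, 8.31 and 8.26 in KD, against 7.26, 7.14 and 7.44 in NC, without overlap. This was a change of 1.03 ± 0.0949, or 2.05-fold (limma, adjusted p = 5.00e-05). That probe set and the next carry suffixes for cross-hybridisation. The next rose by 0.76, and 2 dim ones without such a suffix rose by 0.67 and 0.56. With suffixed sets left out the gene rose by 0.67 (limma, adjusted p = 0.00127). The remaining dim set changed by -0.11 and was not called.

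MXD1, the founding MAX dimerization protein, was dim but rose by 1.46 ± 0.124 on the log2 scale, or 2.74-fold (limma, adjusted p = 3.28e-05). It read 5.93, 5.57 and 5.84 in KD, against 4.34, 4.14 and 4.49 in NC. The lowest KD array lay more than a log2 unit above the highest NC array. Its other probe set lay near the bottom of the scale and was not called, with KD arrays between 2.95 and 3.10 and NC arrays between 3.00 and 3.22.

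MNT, the MAX-binding repressor known from most cell types, rose least. It read 7.57, 7.45 and 7.56 in KD, against 6.98, 7.09 and 7.19 in NC. The groups did not overlap, and the rise was 0.44 ± 0.0857, or 1.35-fold (limma, adjusted p = 0.00368). Its second probe set read 6.25, 6.59 and 6.21 in KD and 6.26, 6.57 and 6.21 in NC, a change of 0.01 with a 95% interval of -0.29 to 0.31. As the mean of both sets MNT changed by 0.22 and did not pass (limma, adjusted p = 0.0570).

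MXD3 was the MXD gene that fell. It read 6.23, 6.20 and 6.31 in KD, against 7.21, 7.45 and 7.23 in NC, with no overlap. The change was -1.05 ± 0.0910 (log2, standard error), which leaves 48.3% of the NC signal (limma, adjusted p = 3.60e-05). A second probe set changed by -0.24 (95% interval -0.50 to 0.02) and a dim one by 0.06, and neither was called. AURKA, a mitotic kinase gene, fell in the same arrays, at 8.78, 8.79 and 8.82 in KD against 10.14, 10.16 and 10.17 in NC. The part of fewer dividing cells in the level of MXD3 was not tested, and in bulk RNA fewer cells with a transcript cannot be told apart from less of it per cell.

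Over all 44 member probe sets, 9 rose, 10 fell and 25 were not called, and 30.6% of all probe sets were called (16.5% higher and 14.1% lower). Among the 21 that reached the median gene level 13 were called (61.9%, against 51.3% of all probe sets that bright), and among the 23 dimmer ones 6 (26.1%, against 16.4%). No member had probe sets called in both directions. Of all genes with at least 2 called probe sets, 5.49% did, and 4 members had that many. Averaging the probe sets of a gene kept the sign of all 8 called members but shrank MXD4 to 0.83, MXD1 to 0.70, MXI1 to 0.58 and MXD3 to -0.41 (log2).

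**Figure D2:**
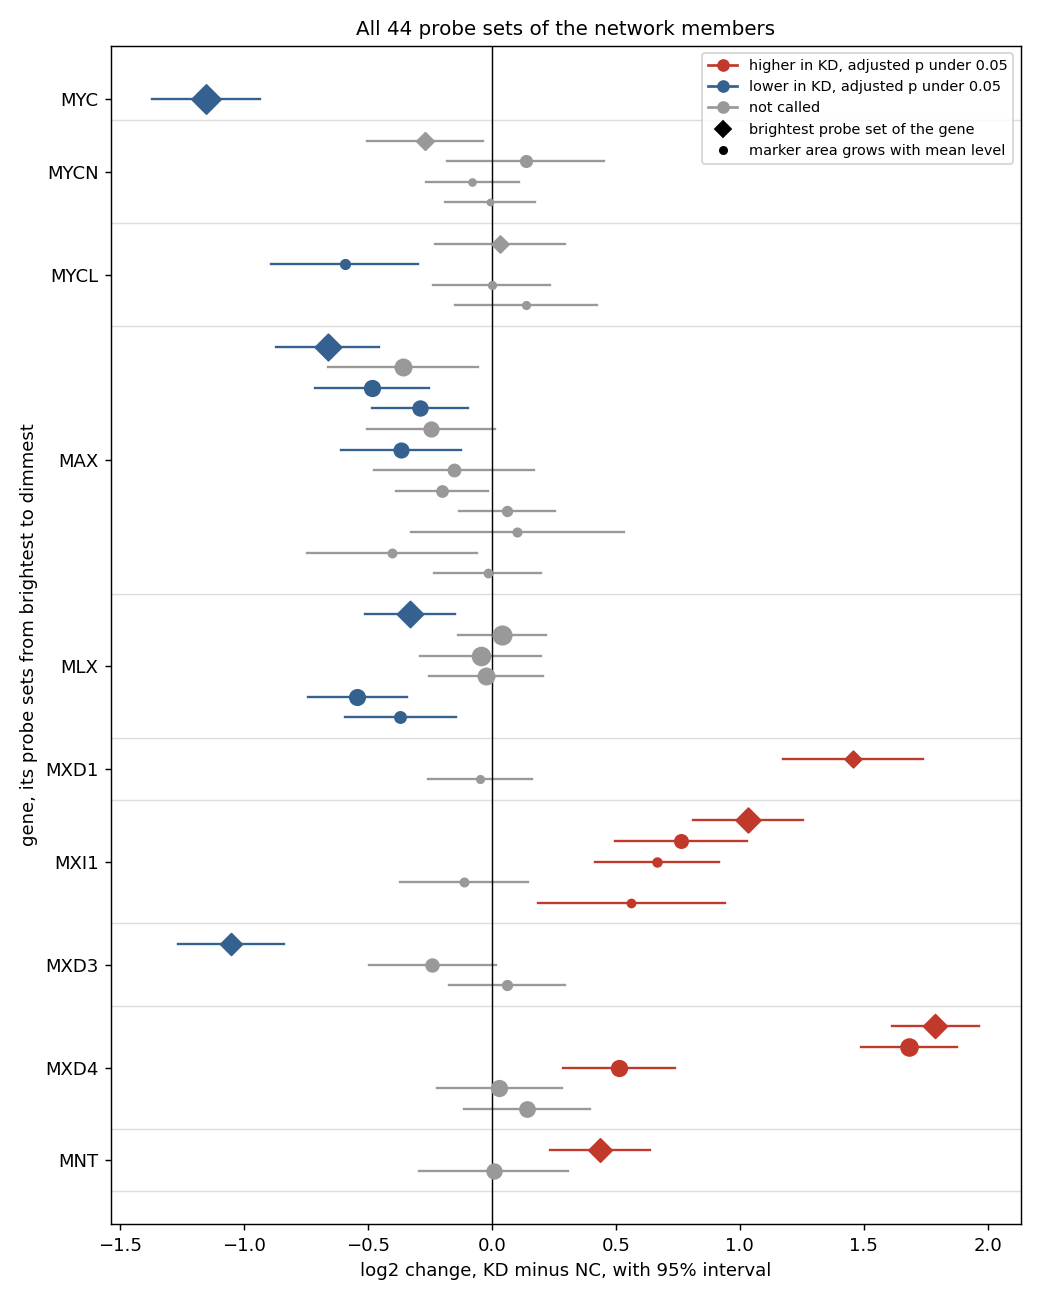
Log2 change (KD minus NC, horizontal axis) with its 95% interval for each of the 44 probe sets, grouped by gene and ordered from brightest to dimmest. Red sets rose, blue sets fell and grey sets were not called. Every gene with a called set, except MYC with its 1 probe set, also has uncalled sets, and all called sets of a gene point the same way.

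The other proteins that read or shape the network were described from lists of textbook members. Over all genes 15.9% fell and 17.6% rose, and of genes that reached the median level, as most listed genes did, 25.4% fell and 27.9% rose. In the Mondo and MGA branch 1 of 3 genes fell and 0 rose. MLXIP, the glucose-sensing partner of MLX known as MondoA, fell by 0.44 (limma, adjusted p = 0.0134), while MLXIPL and MGA changed by 0.06 and 0.20 and were not called. In the repressive complex that MGA builds with Polycomb proteins, 5 of 9 fell (55.6%) and 1, RYBP, rose (11.1%), against 25.4% and 27.9% of genes that reached the median level, as all 9 did. L3MBTL2, its chromatin-compacting subunit, changed by -1.34 ± 0.111, E2F6 by -0.79 ± 0.148 and CBX3, a heterochromatin protein, by -0.71 ± 0.0935 (log2, standard error). TFDP1, the partner of E2F6, changed by -0.47 ± 0.0989.

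Coactivators that MYC recruits were lower in 7 of 17 cases (41.2%) and higher in 2 (11.8%), DMAP1 and CDK9, against 25.4% and 27.9% of genes that reached the median level, as 16 of the 17 did. Their median change was -0.17, against -0.02 over all genes. WDR5, a chromatin adaptor that holds MYC on its targets, changed by -0.89 ± 0.0869, the acetyltransferase gene CREBBP by -0.73 ± 0.0954, and the helicase gene RUVBL1 by -0.65 ± 0.0742. EP400 changed by -0.51 ± 0.0896. In the SIN3 corepressor complex, which the MXD proteins recruit, 4 of 15 genes fell (26.7%) and 1 rose (6.67%). All 15 reached the median level, where 25.4% of genes fell and 27.9% rose. The share of falls was thus near the background, as was the median change of -0.05, while the share of rises lay below it. The riser was SIN3B (0.55 ± 0.110), at 8.72, 8.31 and 8.43 in KD and 7.90, 7.93 and 7.99 in NC. BRMS1 (-0.61 ± 0.0881), SAP30 (-0.52 ± 0.153), RBBP7 (-0.48 ± 0.0968) and SUDS3 fell, and SIN3A changed by -0.12 without passing.

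Of 16 genes that set the lifetime of MYC protein, 5 rose (31.2%) and 6 fell (37.5%). Among genes that reached the median level, as 12 of the 16 did, 27.9% rose and 25.4% fell, so the share of rises was near the background. CIP2A, an inhibitor of the phosphatase that marks MYC for degradation, changed by -1.76 ± 0.110. The deubiquitinase genes USP37 (-1.52 ± 0.117) and USP28 (-0.95 ± 0.112) fell, as did AURKA (-1.36 ± 0.0715), whose kinase protects MYC and MYCN proteins. The listed ubiquitin ligase genes were split. FBXW7 (0.80), whose product binds phosphorylated MYC, STUB1 (0.90), FBXL14 (0.31) and SPOP (0.23) rose, SKP2 fell (-0.51), and HUWE1 (0.09) and TRIM32 (0.09) were not called. The other riser was PPP2R5A (0.60), a subunit of that phosphatase, and USP7 (-0.40), another deubiquitinase gene, was the remaining fall. These 9 were named after their values were seen. MYC protein was not measured here.

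Among genes listed as regulators of MYC transcription 9 of 17 fell (52.9%) and 3 rose (17.6%). The list does not part activators from repressors, or direct from indirect regulators. Of all genes 15.9% fell and 17.6% rose. Of those that reached the median level, as 13 of the 17 did, 25.4% fell and 27.9% rose. E2F2 changed by -1.55 ± 0.108, TCF7L2, the Wnt pathway factor that acts on the MYC gene, by -0.70 ± 0.0809, E2F1 by -0.54 ± 0.0999 and HES1 by -0.53 ± 0.147, while STAT3, NOTCH1 and PRDM1 rose. Of 12 transcription partners of MYC 5 fell (41.7%) and 2, SMAD3 and BIN1, rose (16.7%), against 25.4% and 27.9% of genes that reached the median level, as 11 of the 12 did. The largest changes were those of BRCA1 (-1.94 ± 0.120), YY1 (-0.75 ± 0.101), SP1 (-0.66 ± 0.0855) and NFYC (-0.59 ± 0.0751). Each of these was read by a probe set with a suffix for cross-hybridisation. Of 13 other factors that bind E-boxes 4 rose (30.8%) and 3 fell (23.1%), near the 27.9% and 25.4% of genes that reached the median level, as 11 of the 13 did. The clock gene CLOCK (-0.89 ± 0.107), BHLHE41 (-0.87 ± 0.0808) and MITF (-0.59 ± 0.0783) fell, and TFE3 rose (0.52 ± 0.154). Adjusted p of the genes given with a standard error here and in the 3 paragraphs above lay between 2.59e-06 (AURKA) and 0.0284 (SAP30).

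Genes known to be activated by MYC were mostly lower. Of 64 measured, 47 fell, 1 rose and 16 were not called, so 73.4% fell, against 15.9% of all genes and 25.4% of genes that reached the median level, as 60 of the 64 did. The median change was -0.50, a 1.41-fold lower level. SLC7A5, an amino acid transporter gene, read 9.44, 9.42 and 9.33 in KD, against 11.24, 10.95 and 11.25 in NC, and changed by -1.74 ± 0.100. EIF2S1, a translation initiation factor gene, changed by -1.46 ± 0.0842, CDC25A, which encodes a phosphatase that starts S phase, by -1.29 ± 0.0973, and PPAT, the entry enzyme gene of purine synthesis, by -1.22 ± 0.0918 (limma, adjusted p from 3.98e-06 to 1.74e-05 for these 4). The single riser was SHMT1 (0.72), a folate enzyme gene, whereas its mitochondrial relative SHMT2 changed by -0.99. Of the 4 listed genes of glucose uptake and glycolysis, ENO1 fell (-0.40, limma adjusted p = 0.00308), and LDHA (0.08), HK2 (0.02) and SLC2A1 (0.15) were not called, nor was the transferrin receptor gene TFRC (0.10). These 7 were named after their values were seen. Many listed genes also serve division or ribosome assembly, and those functions were not separated from MYC.

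Genes listed as repressed by MYC more often rose than fell. Whether MYC represses each of them in these cells, ID2 included, was not tested. Of 32 measured, 11 rose (34.4%), 4 fell (12.5%) and 17 were not called. Over all genes 17.6% rose and 15.9% fell. Of genes at or above the median, where 22 of the 32 lie, 27.9% rose and 25.4% fell. The share of falls was thus above neither background, and the share of rises was not far above that of genes at or above the median. The median change was 0.07. NDRG1, a stress-response and differentiation gene, read 8.93, 8.98 and 9.08 in KD, against 7.58, 7.53 and 7.67 in NC, and changed by 1.40 ± 0.0812. CDKN1A, which encodes the cyclin-dependent kinase inhibitor p21 and is also a p53 target, changed by 1.04 ± 0.0813. HMOX1, the heme oxygenase gene, went the other way, at 10.17, 10.05 and 9.92 in KD and 11.96, 11.78 and 11.86 in NC (-1.82 ± 0.0921). ID2 (-1.76 ± 0.132), CDKN1B and GADD45B were the other falls (limma, adjusted p from 2.35e-06 to 2.03e-05 for the 4 genes with a standard error). Among 7 targets of MondoA with MLX, PFKFB3, a glycolysis regulator gene, changed by -0.94 ± 0.0738, TXNIP by -0.33 ± 0.0965 and ARRDC3 by 0.37 ± 0.116 (limma, adjusted p from 2.10e-05 to 0.0357 for these 3). The other 4 were not called, so 28.6% fell and 14.3% rose, against 15.9% and 17.6% of all genes. Of genes that reached the median level, as 4 of the 7 did, 25.4% fell and 27.9% rose. The share of falls was thus near that of genes at this level.

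**Figure D3:**
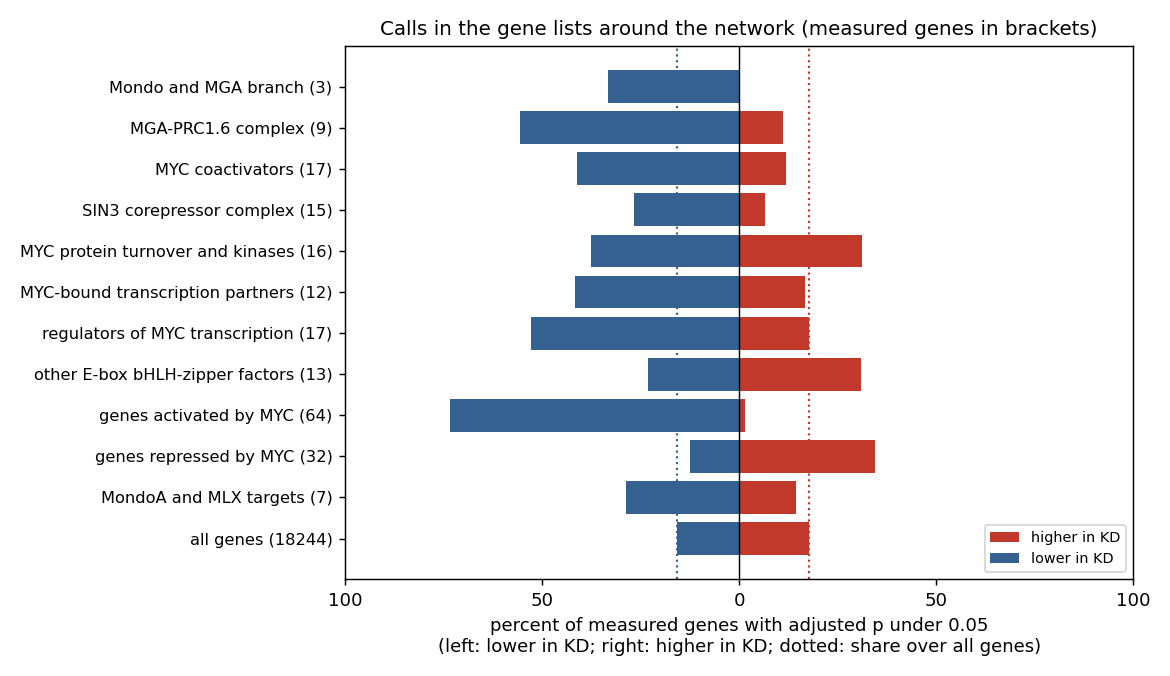
Percent of measured genes in each list that fell (blue, left) or rose (red, right) in KD cells at an adjusted p under 0.05, with the number measured in brackets and the shares over all 18244 genes as dotted lines. Genes activated by MYC have the longest bar to the left (73.4%), and genes repressed by MYC the longest to the right (34.4%). Among genes that reached the median level, whose shares are not drawn, 25.4% fell and 27.9% rose.

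**Figure D4:**
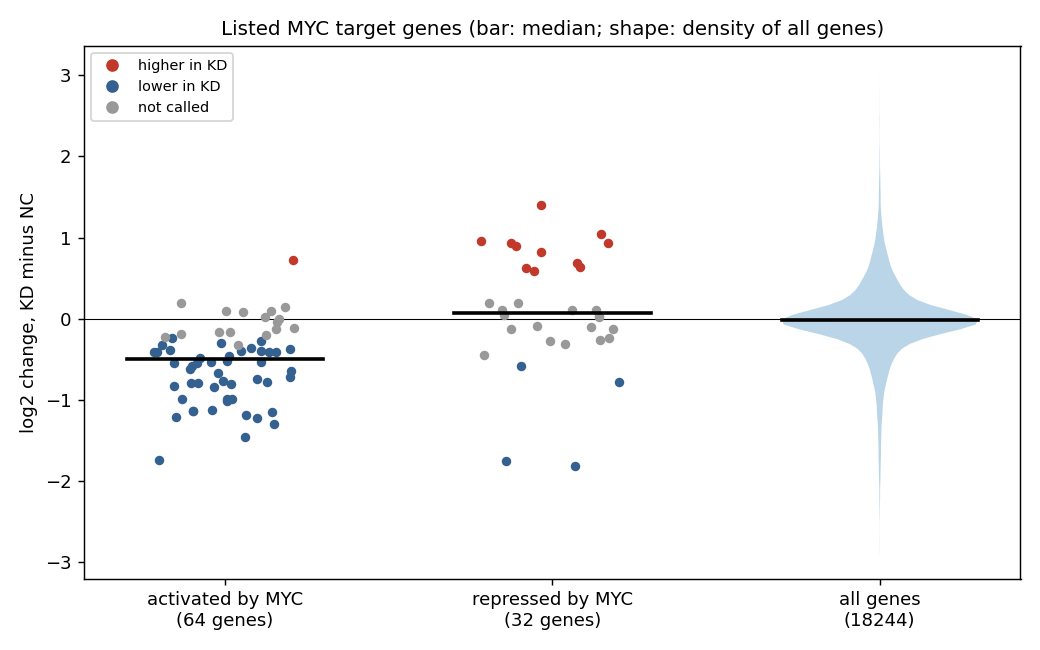
Log2 change (KD minus NC, vertical axis) of each gene listed as activated (64) or repressed (32) by MYC, coloured by call, beside the density of all genes. Black bars are medians, at -0.50, 0.07 and -0.02.

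Promoter windows of the members were searched for the E-box, the letters that dimers of the network prefer. RefSeq windows of GRCh38.p14, from 250 bases before to 50 after a gene's annotated start, were held for 9 of the 10 members. CACGTG, which reads the same on both strands, occurred in 3 of these 9 genes (33.3%), against 10.9% of the 14494 tested genes with a window. The looser CANNTG, which includes CACGTG, occurred in 8 of 9, against 70.3%. Some genes have several windows. Counted by window, CANNTG occurred in 8 of 12 (66.7%), near the 64.8% of tested genes, and CACGTG in 3 of 12 (25.0%, against 8.27%). MXD4 has CACGTG at 238, MNT at 193 and MLX at 50 bases before the start, counted to its first base. The 250 bases before the start are shown for these 3 and, for a riser without CACGTG, for MXD1, 5′ to 3′ on the gene's strand with each CANNTG in capitals. They lie at chr4:2262110-2262359, minus strand (MXD4), chr17:2401061-2401310, minus strand (MNT), chr17:42566850-42567099, plus strand (MLX) and chr2:69914859-69915108, plus strand (MXD1).
MXD4: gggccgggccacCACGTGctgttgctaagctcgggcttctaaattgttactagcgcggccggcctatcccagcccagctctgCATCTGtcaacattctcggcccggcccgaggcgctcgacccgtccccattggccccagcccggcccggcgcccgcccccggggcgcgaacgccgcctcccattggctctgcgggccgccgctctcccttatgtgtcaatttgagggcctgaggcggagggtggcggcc
MNT: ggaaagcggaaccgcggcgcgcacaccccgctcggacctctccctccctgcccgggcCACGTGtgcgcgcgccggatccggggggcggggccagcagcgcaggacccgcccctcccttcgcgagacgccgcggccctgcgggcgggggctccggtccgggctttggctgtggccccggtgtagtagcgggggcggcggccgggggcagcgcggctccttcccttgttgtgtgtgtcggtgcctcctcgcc
MLX: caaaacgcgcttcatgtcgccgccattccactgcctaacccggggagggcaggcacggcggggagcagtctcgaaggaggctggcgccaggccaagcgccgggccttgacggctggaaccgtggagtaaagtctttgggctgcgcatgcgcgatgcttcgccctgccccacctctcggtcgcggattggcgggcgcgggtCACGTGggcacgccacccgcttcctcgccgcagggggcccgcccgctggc
MXD1: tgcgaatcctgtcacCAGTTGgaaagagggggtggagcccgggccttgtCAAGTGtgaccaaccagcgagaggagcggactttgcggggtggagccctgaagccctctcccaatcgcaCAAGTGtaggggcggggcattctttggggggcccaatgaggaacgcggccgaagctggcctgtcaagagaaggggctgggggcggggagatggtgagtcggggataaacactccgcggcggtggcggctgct

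MXD4 and MNT rose and MLX fell, so the 3 members with CACGTG did not move one way. MXD1, which rose 2.74-fold, holds CAGTTG at 235 and CAAGTG at 201 and 132 bases before the start, but not CACGTG in this window. A match is no more than letters in a window of 300 bases, and binding was not measured.

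In the list of genes activated by MYC, CACGTG occurred in 21 of 52 genes with a window (40.4%), against 10.9% of tested genes, and in 5 of 22 genes of the repressed list (22.7%). Both lists hold known targets, and how far these letters brought genes into them was not tested. Within the activated list CACGTG occurred in 14 of 37 genes that fell (37.8%) and in 7 of 15 that did not (46.7%). Sites of 30 bases with CACGTG in capitals are shown for 2 genes that led the falls, SLC7A5 and PPAT, for ODC1, a polyamine synthesis gene that fell by 0.77, and for LDHA, which was not called. They lie at chr16:87869620-87869649, minus strand, at chr4:56435780-56435809, minus strand, at chr2:10448024-10448053, minus strand and at chr11:18394464-18394493, plus strand of GRCh38.p14, from RefSeq.
SLC7A5: ggccggacgacgCACGTGctccgagctggg
PPAT: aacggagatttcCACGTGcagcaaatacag
ODC1: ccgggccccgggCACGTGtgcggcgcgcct
LDHA: cagcccgactcaCACGTGggttcccgcacg

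CACGTG begins 130 bases before the start of SLC7A5, 182 before PPAT, 29 before ODC1 and 87 before LDHA. Both ODC1, at 5 bases after the start, and LDHA, at 185 before it, hold another CACGTG in the window that is not shown. ODC1 and LDHA were picked after their values were seen. The same E-box letters thus stood before genes that fell and before a gene that was not called.

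Across the 6 arrays, the genes with profiles closest to MYC were PAICS, an enzyme gene of purine synthesis, USP1, ARMC1, ANP32E and DENR. Likeness was the root mean square difference between profiles, each centred on its own mean, and was 0.0416 to 0.0535 log2 units for these 5. Their changes lay between -1.16 and -1.11. PAICS read 8.54, 8.59 and 8.57 in KD, against 9.87, 9.58 and 9.64 in NC, and like MYC was highest in NC replicate 1. The genes closest to MXD4 were RFTN1, IRF9, an interferon-pathway factor gene, RRAGD, a gene of nutrient sensing at the lysosome, SYNGR3 and CRYAB, a small heat shock protein gene, at 0.0506 to 0.0647 log2 units. Their changes lay between 1.69 and 1.88. With 2 groups of 3 arrays the likeness mostly reflects the size of the change between KD and NC.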

How the data were processed

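Per the labels, total RNA of 3 KD and 3 NC samples was extracted with Trizol, labelled with biotin and hybridised to Affymetrix arrays. The authors' deposited table holds log2 probe-set values of 49395 probe sets (the log base was read from the range, up to 14.3). Probe summarisation and array normalization by the authors are not given in the sources used here. The median change over all genes was -0.02, and dim values stand as deposited.

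Gene names came from the platform annotation, in which 45278 probe sets had 1 symbol, 1333 several and 2682 none, and 102 controls were left out. Each of 18244 genes was represented by its brightest probe set. For many named list genes that set carries a suffix for cross-hybridisation (x or s), and their other probe sets are not given here. Genes, and separately all 49293 other probe sets, were tested in R 4.3.3 by limma 3.58.1 (lmFit, then eBayes; two-sided; the group as the only term, Benjamini-Hochberg over the whole table, threshold 0.05), with 4 residual and 4.67 prior degrees of freedom for genes. The steps were tested on simulated data. Gene lists were described by counts and medians, and 199 distinct list genes were measured, 6 of them in more than 1 list. Members, lists and named genes were chosen with earlier results of these data known. Named were all members, per list up to 4 called genes of largest change whose groups did not overlap (or the one with the smallest p), and the 5 genes most like MYC and MXD4; others are said to be so where they occur or are the few members behind a small count. List genes without a probe set of exactly 1 symbol were not analysed here. Promoter sequences are from RefSeq, GRCh38.p14; the MYC promoter and the member proteins were not analysed here. Figures were drawn with matplotlib 3.10.9. Alternatives were quantile normalization, median centring, array weights, trend with robust fitting, a block on the replicate number, averaging the probe sets of a gene, x and s probe sets left out, genes below the 40th percentile left out, and each array left out.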

Additional observations from a re-analysis of the deposited data

How the results depend on the processing

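MYC fell under all 14 alternatives, by -1.22 to -1.08 (limma, adjusted p from 1.56e-08 to 0.000339), and MAX, MLX, MXD1, MXD3, MXD4 and MXI1 kept their call and direction under every alternative in which they were tested. MYC has 1 probe set, neither dim nor of the x or s kind. Averaging probe sets, leaving x and s sets or dim genes out, robust fitting with trend and the replicate block therefore kept its change at -1.15. Those alternatives could not alter its size. The members that fell numbered 4 to 5 and those that rose 3 to 4. MNT lost its call with the mean of its probe sets (0.22). MYCN passed with quantile normalization (-0.29, limma adjusted p = 0.0371), median centring (-0.29, 0.0461), the replicate block (-0.27, 0.0486) and without NC replicate 1 (-0.35, 0.0354), within adjusted p of 0.0354 to 0.680 over its 13 alternatives. Genes activated by MYC that fell numbered 37 (x and s probe sets left out) to 50 (mean of probe sets, and trend and robust fitting), genes repressed by MYC that rose 9 to 11, member probe sets called 16 to 22, and all genes called 4955 to 6998. The 37 come from fewer tested genes. Listed genes read only by x or s sets, PPAN and PRMT5 among them, were not tested in that setting. Leaving out 1 array at a time gave 41 to 48 activated genes that fell. Deviations of same-numbered KD and NC arrays correlated at 0.25, 0.26 and -0.10, so the numbers are not taken as pairs. The block gave 47 activated genes that fell, 20 member probe sets and 6276 genes called. MXD1, MYCL and MYCN are too dim to be tested with genes below the 40th percentile left out. Alternative pseudocounts did not apply to log2 values. For dim probe sets, signal over background limits what 3 arrays a group can show.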
